A study of Mus musculus with 24 samples.

Results

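The 10 genes described here, which are used to recognise astrocytes, were followed through the cerebellum and hippocampus of mice with and without the lysosomal cholesterol transporter gene Npc1. The set holds 10 of the 57126 genes in the count files, taken by symbol through their Ensembl identifiers, and all 10 were found. Of these, 5 are named for Bergmann glia (Gdf10, Hopx, Fabp7, Dao and Tnc) and 5 for astrocytes in general (Aqp4, Gja1, Gjb6, S100b and Sox9). The first group was Npc1-/- mice given dipyridamole (DIP), a vasodilator and antiplatelet drug that inhibits nucleoside uptake and phosphodiesterases, at 30 mg/kg intraperitoneally on 5 days a week from postnatal day 28 to sacrifice. The second was Npc1-/- mice given the PBS:PEG400 vehicle, and the third was healthy Npc1+/+ mice given the same vehicle. All mice were of the BALB/cNctr-Npc1m1N/J strain, whose mutant allele is germline, so no cell type is targeted. Each group had 4 mice and gave 4 libraries from the cerebellum and 4 from the hippocampus of the same animals, 24 libraries in all. The Npc1+/+ mice were all female and were killed on day 65, whereas the Npc1-/- mice were killed on day 63, with 1 female among the 4 given vehicle and 2 among the 4 given DIP. The Npc1-/- libraries carried ion codes 117 to 131 and the Npc1+/+ libraries 101 to 112. Genotype therefore cannot be told apart from the day of sacrifice or the range of ion codes, and sex was estimated within the Npc1-/- mice.

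Bergmann glia are the unipolar astrocytes of the cerebellar cortex. Their cell bodies lie beside those of Purkinje cells, and their fibres span the molecular layer and ensheath Purkinje dendrites and synapses. Loss of Npc1 traps cholesterol in late endosomes and lysosomes and is known in mice for an early loss of Purkinje cells together with gliosis. The hippocampus has no Bergmann glia, but some genes named for them are also used by radial stem cells of the dentate gyrus and by other astrocytes.

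Library totals ran from 1833609 to 11590081 counts. Npc1 averaged 20.1 ± 6.5 CPM in Npc1-/- DIP, 28.9 ± 7.3 CPM in Npc1-/- vehicle and 103 ± 4.7 CPM in Npc1+/+ cerebellum (mean ± SD, n = 4). In hippocampus it averaged 18.6 ± 2.5 CPM in Npc1-/- DIP, 19.9 ± 2.4 CPM in Npc1-/- vehicle and 78.0 ± 15.0 CPM in Npc1+/+, and no Npc1-/- library of either tissue reached the Npc1+/+ range. CPM are counts scaled to library size, on a scale shared by all 24 libraries. Granule cell markers summed to 4071 to 5312 CPM in the cerebella and 80.3 to 147 CPM in the hippocampi, and principal neuron markers of the hippocampus to 724 to 1331 CPM in the cerebella and 4692 to 8514 CPM in the hippocampi. The library of Npc1-/- vehicle cerebellum replicate 2 was the shallowest of all, and replicate 1 of that group had the lowest choroid plexus markers of its tissue, with 132.5 summed CPM. In the hippocampus, Npc1-/- vehicle replicate 2 was the shallowest, with 3844971 counts, and Npc1-/- DIP replicate 4 had the lowest markers of hippocampal principal neurons, with 4692 summed CPM. That library and the cerebellar library of the same mouse are labelled with the same ion code, 124, and both were kept.

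The assay amplifies 1 short product per gene, so CPM were compared between samples and not between genes. Positions below are those of the files, on GRCm39. Gdf10 (chr14:33645544-33659940, plus strand) encodes a secreted ligand of the TGF-beta family and is used as a marker of Bergmann glia. Fabp7 (chr10:57660977-57664546, plus) encodes the brain fatty acid binding protein of radial glia. Dao (chr5:114141764-114163743, plus) encodes D-amino acid oxidase, the peroxisomal enzyme that degrades D-serine in hindbrain astrocytes. Tnc (chr4:63878022-63965252, minus) encodes tenascin-C, a matrix glycoprotein made by radial and reactive astroglia. Among the general genes, Aqp4 (chr18:15522553-15544039, minus) encodes the water channel of astrocyte endfeet. Gja1 (chr10:56253426-56278609, plus) and Gjb6 (chr14:57360760-57371068, minus) encode the gap junction connexins that couple astrocytes. S100b (chr10:76089687-76096993, plus) encodes a calcium-binding protein, and Sox9 (chr11:112673050-112678586, plus) a transcription factor of astroglia. The span of S100b overlaps that of Dip2a on the other strand, and without strand their reads cannot be told apart where they overlap. The spans of Tnc and Aqp4 each overlap a gene on the other strand that had 0 counts.

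Hopx (chr5:77234835-77262968, minus), a homeodomain protein gene of Bergmann glia and stem cells, had 1 count among the 190168351 of all libraries and was left without a test. A sum of 3 counts in a group would be 0.0799 to 0.12 CPM, the limit that a count of 0 allows. Other genes of high abundance in brain were as low, among them Phgdh and Pcp4 with 1 count each and Gapdh with 24, which were picked after their values were seen. The span of Hopx overlaps that of Hopxos on the other strand, which had 1 count, and strand was not used in counting. A gene without RNA, one whose amplicon gave no reads and one whose reads went uncounted cannot be told apart here. Gjb6 had 201 counts in all libraries, so its values carry wide intervals.

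The 250 bases before the start are shown for 4 genes called in Npc1-/- vehicle against Npc1+/+ cerebellum. Tnc, Gdf10 and S100b were lower, S100b just past the threshold, and Gja1 was higher. The bases are from RefSeq on GRCm38.p6, a different build from that of the counts. RefSeq promoters were given for 8 of the 10 genes. Capitals mark motifs searched on both strands: the SOX cores AACAAT and ACAAAG, the short NFI site TTGGCA and the full palindromic NFI site, the RBPJ core TGGGAA, the TATA box TATAAA and the GC box GGGCGG.
Gdf10 (chr14:33923337-33923586, plus): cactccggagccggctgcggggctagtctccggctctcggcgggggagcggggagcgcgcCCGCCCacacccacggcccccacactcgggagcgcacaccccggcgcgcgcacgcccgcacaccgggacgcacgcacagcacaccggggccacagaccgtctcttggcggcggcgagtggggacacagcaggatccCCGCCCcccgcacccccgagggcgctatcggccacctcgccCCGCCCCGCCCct
Tnc, first listed start (chr4:64047016-64047265, minus): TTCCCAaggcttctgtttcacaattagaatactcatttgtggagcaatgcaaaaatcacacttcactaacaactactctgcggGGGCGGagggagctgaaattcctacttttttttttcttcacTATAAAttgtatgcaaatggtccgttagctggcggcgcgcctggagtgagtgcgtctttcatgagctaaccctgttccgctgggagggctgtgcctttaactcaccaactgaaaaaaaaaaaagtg
S100b (chr10:76253586-76253835, plus): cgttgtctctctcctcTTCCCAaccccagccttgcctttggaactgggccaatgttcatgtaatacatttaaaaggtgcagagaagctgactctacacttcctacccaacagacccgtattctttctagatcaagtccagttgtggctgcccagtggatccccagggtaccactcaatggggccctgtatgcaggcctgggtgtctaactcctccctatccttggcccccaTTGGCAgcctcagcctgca
Gja1 (chr10:56377050-56377299, plus): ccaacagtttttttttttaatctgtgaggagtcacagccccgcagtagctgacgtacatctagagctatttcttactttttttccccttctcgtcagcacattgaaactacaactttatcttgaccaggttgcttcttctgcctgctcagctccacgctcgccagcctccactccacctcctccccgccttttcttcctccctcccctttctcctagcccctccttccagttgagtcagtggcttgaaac
The Gdf10 window was 78.8% G and C, against a median of 52.4% over 32536 windows, and held 4 GC boxes, of which the pair nearest the start overlap. The Tnc window held a GC box, a TATA box and an RBPJ core. That of S100b held a short NFI site 19 bases before the start and an RBPJ core, and that of Gja1 held no match. Over all windows the GC box occurred in 33%, the RBPJ core in 21.6%, the TATA box in 12.3%, the short NFI site in 12.3% and its full site in 0.0369%. The SOX cores occurred in 9.35% for AACAAT and 16.5% for ACAAAG, and neither was in these 4 windows. A match is a description of the letters only.

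In healthy mice the cerebellum held more Gdf10, Fabp7 and Tnc than the hippocampus. Fewer cells of a type and less RNA per cell cannot be told apart in these bulk samples. Gdf10, Fabp7 and Tnc were called higher in cerebellum, as were Aqp4 and S100b. Counting Dao as well makes 6 of the 9 tested members. Of all 13436 genes, 21.2% were called higher and 43.1% in either direction. The ranges of Gdf10, Fabp7, Dao, Tnc and S100b did not overlap between the tissues, as for 38.9% of all genes. Dao met the filter on low counts only through the cerebellum, so it had to differ and adds nothing to these counts. Gdf10 measured 115, 87.5, 120.5 and 100.1 CPM in the cerebella of the 4 Npc1+/+ mice, against 9.85, 10.8, 12.0 and 7.70 CPM in their hippocampi. Every cerebellum lay far above every hippocampus, with a log2 fold change of 3.39 ± 0.16 (SE; edgeR quasi-likelihood test with the mouse as block, Benjamini-Hochberg adjusted p = 7.6e-12). Dao gave 44.0, 53.2, 42.7 and 42.8 CPM in cerebellum, against 3, 1, 1 and 0 counts in hippocampus. The ratio of the summed counts, 1725 against 5 and scaled for library size, was 309, with an exact 95% interval of 132 to 954 that covers counting error only. In the Npc1-/- mice the hippocampal counts of Dao were 2 with DIP and 1 with vehicle, and 7 of all 12 hippocampal libraries had none.

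S100b measured 194, 235, 207 and 256 CPM in Npc1+/+ cerebellum, against 73.1, 71.3, 72.0 and 61.5 CPM in hippocampus, a log2 fold change of 1.67 ± 0.14 without overlap. Tnc was 0.96 ± 0.26, Aqp4 0.88 ± 0.20 and Fabp7 0.69 ± 0.12 higher on the log2 scale, with edgeR adjusted p of 0.0059 for Tnc, 0.00152 for Aqp4 and 0.000128 for Fabp7. For Aqp4 the ranges overlapped, at 104 to 214 CPM in cerebellum and 67.0 to 109.6 CPM in hippocampus. Gja1 and Sox9 were not called, with intervals of the log2 difference of -0.26 to 0.23 for Gja1 and of -0.55 to 0.21 for Sox9, nor was Gjb6 (1.18 ± 0.65, adjusted p = 0.156). Of 17 other Bergmann glia genes tested, 14 were higher in cerebellum and 1 lower, with a median of 1.51 on the log2 scale against 0.02 over all genes. Among the 14, Mybpc1 was below the filter in the hippocampal fit and had to differ. Ptch1, the sonic hedgehog receptor gene, averaged 189 ± 17 CPM in cerebellum and 43.4 ± 3.5 CPM in hippocampus. Itih3, an inter-alpha-trypsin inhibitor heavy chain gene, averaged 38.0 ± 4.7 CPM in cerebellum and 6.21 ± 1.59 CPM in hippocampus. Of 32 other astrocyte genes, 10 were higher and 8 lower in cerebellum, among the lower ones the transcription factor gene Lhx2 at 3.58 ± 0.91 CPM in cerebellum and 108 ± 21 CPM in hippocampus.

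**Figure D1:**
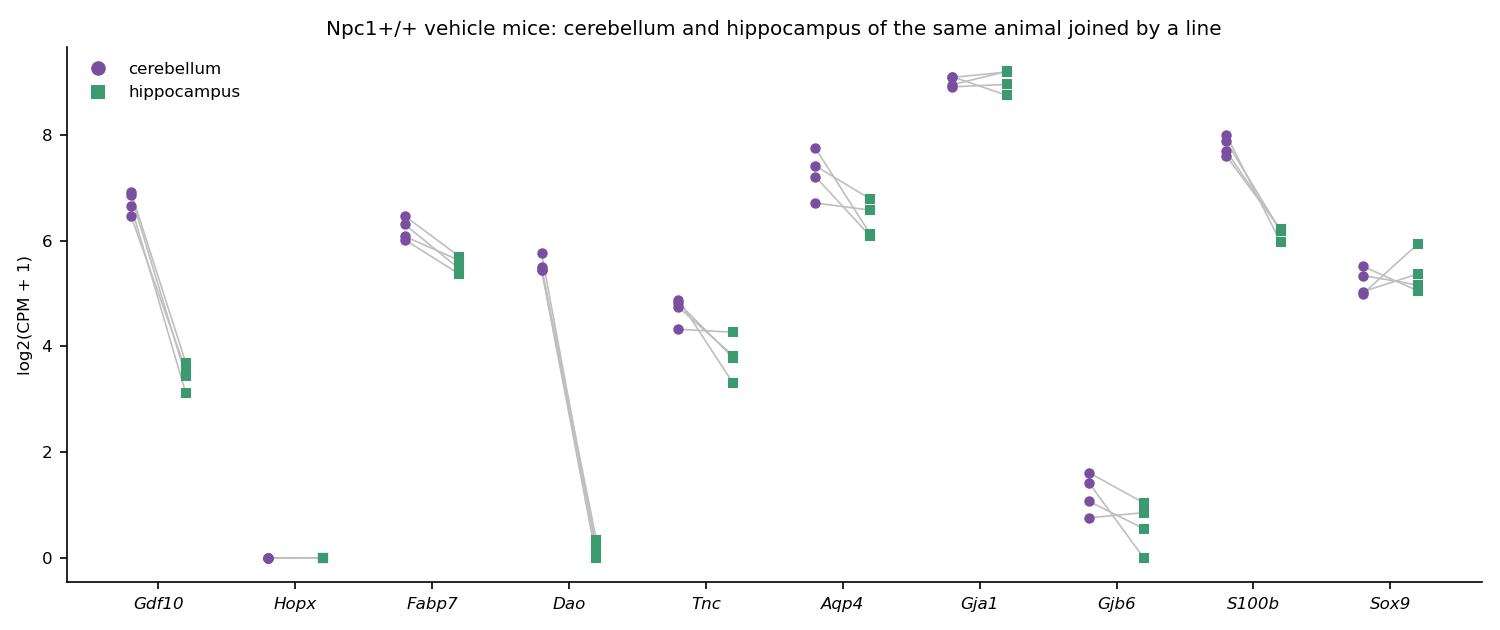
Level of the 10 genes, as log2(CPM + 1), in the cerebellum (circles) and hippocampus (squares) of the 4 Npc1+/+ vehicle mice, with lines joining the tissues of 1 mouse. Dao and Gdf10 lie far apart between the tissues, Gja1 and Sox9 run level or cross, and Hopx is at 0 throughout.

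In the edgeR fit with sex as covariate, Tnc was 4.11-fold and Gdf10 2.83-fold lower in Npc1-/- vehicle than in Npc1+/+ cerebella. Aqp4 was 2.56-fold and Gja1 1.92-fold higher in that fit. These folds are fitted values and are not the ratios of the mean CPM. Of the 9 members tested, 5 passed in Npc1-/- vehicle against Npc1+/+ vehicle cerebellum, 2 higher and 3 lower, where 9.95% of all 12921 genes did, 5.91% higher and 4.04% lower. Of the 4 tested Bergmann glia genes 2 fell, and of the 5 general genes 2 rose and 1 fell. The median log2 fold change was -1.01 over the tested Bergmann glia genes and 0.55 over the general genes, against 0.01 over all genes.

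Tnc measured 3.58, 2.57, 5.62 and 5.61 CPM in Npc1-/- vehicle cerebellum, against 28.6, 27.3, 25.8 and 19.0 CPM in Npc1+/+ cerebellum. The highest mutant lay well below the lowest healthy cerebellum, and the log2 fold change was -2.04 ± 0.28 (edgeR quasi-likelihood test, adjusted p = 0.000109). Gdf10 measured 40.8, 52.9, 45.3 and 33.1 CPM in Npc1-/- vehicle cerebellum, against 115, 87.5, 120.5 and 100.1 CPM in Npc1+/+ cerebellum. These groups too did not overlap, and the log2 fold change was -1.50 ± 0.23 (edgeR, adjusted p = 0.0003). Both calls held in each of the 12 fits that left out 1 library and in every other setting tried.

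Fabp7 measured 47.1, 61.7, 41.1 and 67.7 CPM in Npc1-/- vehicle cerebellum, against 63.8, 87.5, 66.7 and 78.2 CPM in Npc1+/+ cerebellum. A single mutant reached into the healthy range, and the log2 fold change of -0.53 ± 0.22 missed the threshold (edgeR, adjusted p = 0.143). It was -0.17 without Npc1-/- vehicle replicate 3 (adjusted p = 0.804), the group's single female, and -0.84 in females alone (adjusted p = 0.0270), where that mouse is the whole Npc1-/- vehicle group and is assumed to vary like the others. Dao measured 40.8, 34.4, 40.8 and 34.5 CPM in Npc1-/- vehicle cerebellum, against 44.0, 53.2, 42.7 and 42.8 CPM in Npc1+/+ cerebellum. Its groups did not overlap, yet the fit with sex as covariate gave a log2 fold change of -0.06 ± 0.18 (edgeR, adjusted p = 0.886), and without that covariate the fold change was -0.26. Among Bergmann glia genes, Gdf10, Dao and Tnc separated the genotypes without overlap, as did Aqp4, Gja1, S100b and Sox9 among the general ones, where 20.7% of all genes did.

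Aqp4 measured 265, 575, 370.4 and 284 CPM in Npc1-/- vehicle cerebellum, against 104, 147, 169 and 214 CPM in Npc1+/+ cerebellum. Every mutant lay above every healthy mouse, and the log2 fold change was 1.36 ± 0.30 (edgeR, adjusted p = 0.00666). Within Npc1-/- vehicle, replicate 1 had the lowest Aqp4 and the lowest choroid plexus sum (132.5 CPM), and the shallow replicate 2 the highest of both (3265 CPM). In Npc1-/- DIP cerebellum, replicate 1 had the lowest Aqp4 (253 CPM) with a choroid plexus sum of 3222 CPM. The part of these markers in the result was not tested. Leaving out Npc1-/- vehicle replicate 3, the group's single female, gave an adjusted p of 0.0678, and leaving out replicate 2 gave 0.00127. Fitted on the compared groups alone it was 0.0976. Gja1 measured 1013, 782, 938 and 906 CPM in Npc1-/- vehicle cerebellum, against 547, 542, 479 and 492 CPM in Npc1+/+ cerebellum. The groups were far apart, with a log2 fold change of 0.94 ± 0.15 (edgeR, adjusted p = 0.000551).

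S100b measured 183, 175, 149.5 and 176 CPM in Npc1-/- vehicle cerebellum, against 194, 235, 207 and 256 CPM in Npc1+/+ cerebellum. The groups did not overlap, and its log2 fold change of -0.54 ± 0.17 lay just past the threshold (edgeR, adjusted p = 0.0471). That call was lost in 9 of the 12 fits without 1 library, where the adjusted p reached 0.264 without Npc1-/- vehicle replicate 3. It held without Npc1+/+ replicate 1, Npc1-/- vehicle replicate 2 or Npc1-/- DIP replicate 4. The edgeR call of S100b was also lost without the sex covariate (adjusted p = 0.0708), with a replicate block (0.203) and on the compared groups alone (0.239). Sox9 measured 58.0, 63.2, 56.5 and 53.0 CPM in Npc1-/- vehicle cerebellum, against 30.9, 31.8, 39.5 and 44.7 CPM in Npc1+/+ cerebellum. Its groups did not overlap either, and its log2 fold change of 0.55 ± 0.18 lay just short of the threshold (edgeR, adjusted p = 0.0627), passing with DESeq2 (0.0405), without the sex covariate (0.0045) and without Npc1+/+ replicate 4 (0.0371). Gjb6 had 26 counts in the 4 Npc1-/- vehicle and 49 in the 4 Npc1+/+ cerebella, and its log2 difference of -0.71 had an interval of -2.14 to 0.71.

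**Figure D2:**
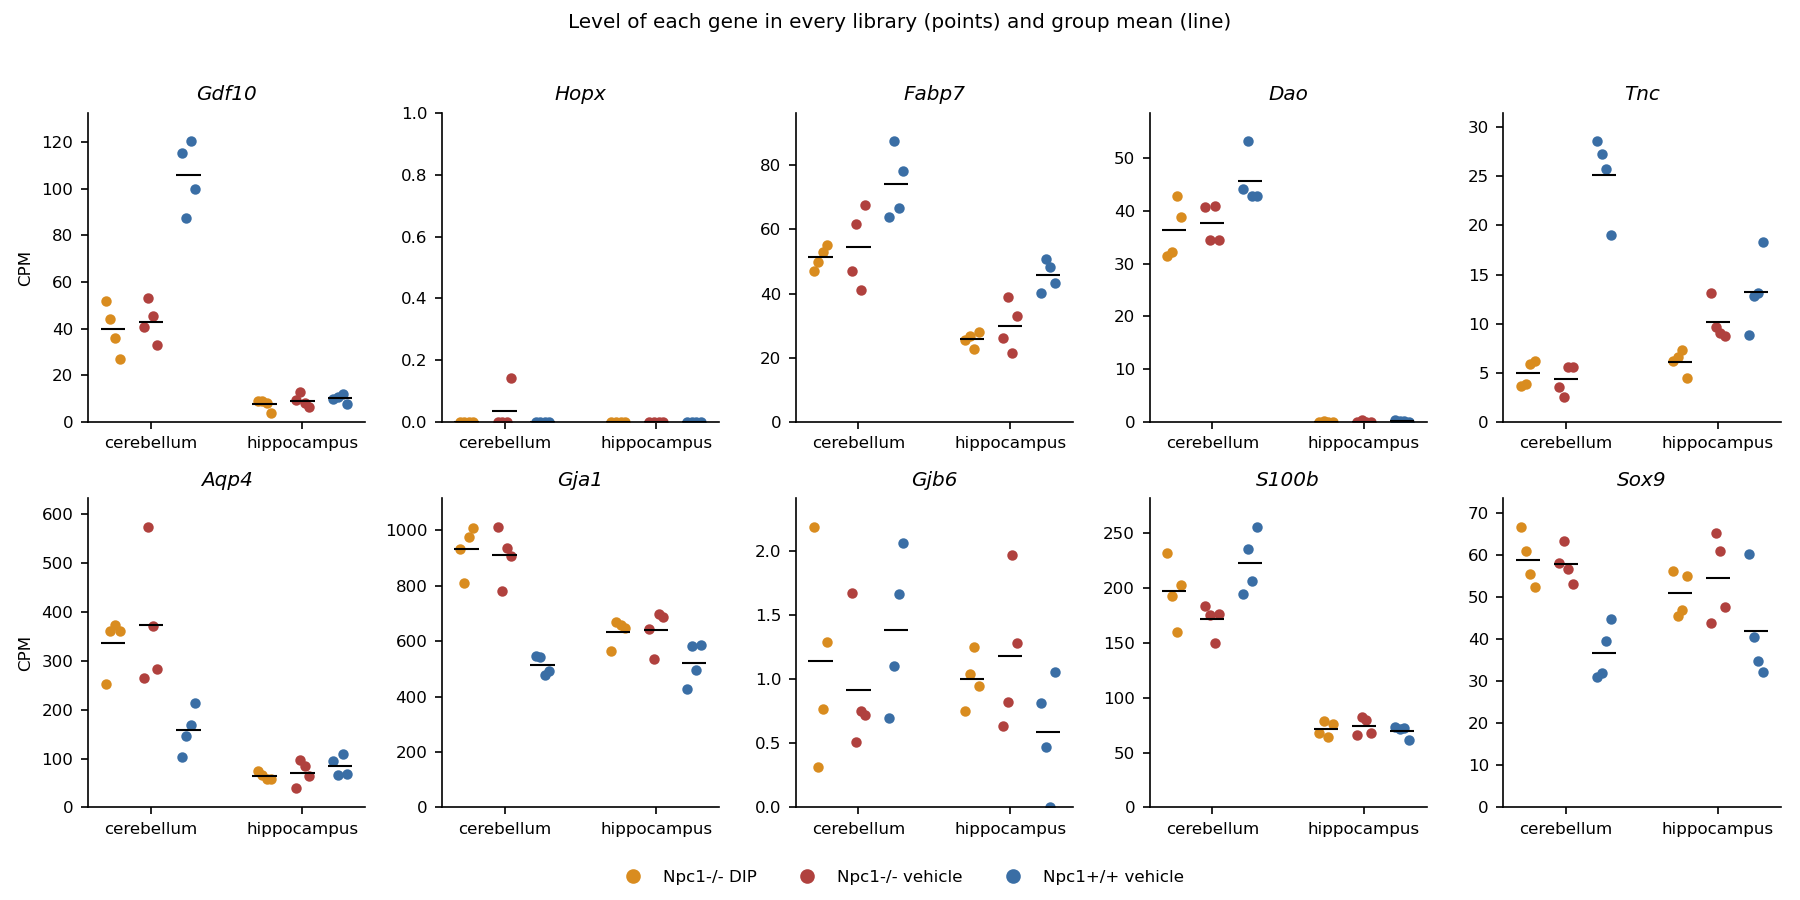
CPM of the 10 genes in every library (points) with the group mean (line), for Npc1-/- DIP, Npc1-/- vehicle and Npc1+/+ vehicle mice from left to right in each tissue, on axes that start at 0. In cerebellum, the Npc1-/- groups sit together, below Npc1+/+ for Tnc and Gdf10 and above it for Aqp4, Gja1 and Sox9.

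Other genes of the same cells were read from lists that the 10 genes are not part of. Those lists too were chosen with earlier results of these data known. Of 17 other Bergmann glia genes tested, 6 fell and 2 rose in Npc1-/- vehicle against Npc1+/+ cerebellum, with a median log2 fold change of -0.59. Etv5, a transcription factor gene under FGF signalling, averaged 66.0 ± 9.5 CPM in Npc1-/- vehicle and 163 ± 19 CPM in Npc1+/+ cerebellum. Gli1 and Ptch1, targets of the sonic hedgehog signal that Purkinje cells send to Bergmann glia, were lower too. Gli1 averaged 10.2 ± 1.0 CPM in Npc1-/- vehicle and 29.5 ± 3.4 CPM in Npc1+/+ cerebellum, and Ptch1 115 ± 12 CPM in Npc1-/- vehicle and 189 ± 17 CPM in Npc1+/+ cerebellum. Slc1a3, the glutamate transporter of Bergmann glia, averaged 216 ± 45 CPM in Npc1-/- vehicle and 503 ± 43 CPM in Npc1+/+ cerebellum. Of 32 other astrocyte genes 3 rose and 1 fell, with a median of 0.12. Of all genes, 9.95% were called, 5.91% higher and 4.04% lower. Agt, the angiotensinogen gene, averaged 252 ± 58 CPM in Npc1-/- vehicle and 68.4 ± 1.5 CPM in Npc1+/+ cerebellum. The transcription factor gene Rfx4 averaged 26.6 ± 6.5 CPM in Npc1-/- vehicle and 16.3 ± 1.5 CPM in Npc1+/+ cerebellum, and the neurotensin receptor gene Ntsr2 222 ± 24 CPM in Npc1-/- vehicle and 150.5 ± 21.8 CPM in Npc1+/+ cerebellum. Chrdl1, a BMP antagonist gene, averaged 2.42 ± 1.04 CPM in Npc1-/- vehicle and 8.35 ± 1.14 CPM in Npc1+/+ cerebellum. Reactive astrocyte genes rose in 8 of 12, with Gfap at 135 ± 14 CPM in Npc1-/- vehicle against 8.97 ± 0.44 CPM in Npc1+/+ cerebellum.

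**Figure D3:**
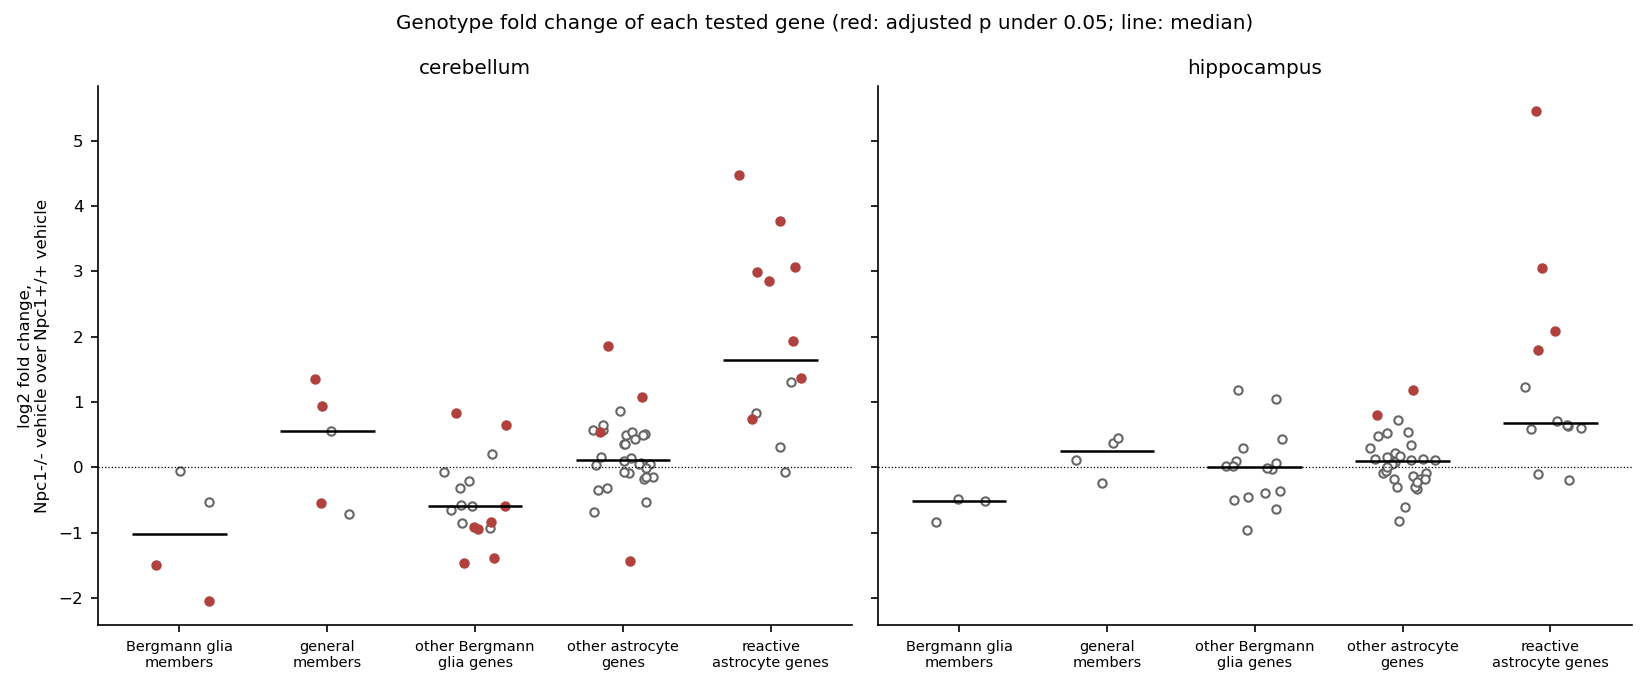
Genotype log2 fold change (Npc1-/- vehicle over Npc1+/+ vehicle) of each tested gene of the 10 and of 3 other glial lists, by tissue, with red points for an adjusted p under 0.05 and lines for medians. In cerebellum the Bergmann glia genes lie mostly below 0 and the reactive genes mostly above it.

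Of 11 genes whose products anchor or accompany Aqp4 at the endfoot, edgeR called none in cerebellum and 3 had an unadjusted p under 0.05. So had 3088 of all 12921 genes. The dystrobrevin gene Dtna was at 42.2 ± 5.3 CPM in Npc1-/- vehicle and 59.4 ± 7.0 CPM in Npc1+/+ cerebellum (adjusted p = 0.161). Of 14 matrix partners of tenascin-C, the syndecan gene Sdc4 rose, at 414 ± 53 CPM in Npc1-/- vehicle and 212 ± 17 CPM in Npc1+/+ cerebellum. The perineuronal link protein gene Hapln4 fell to 169.9 ± 12.9 CPM in Npc1-/- vehicle, against 296 ± 22 CPM in Npc1+/+ cerebellum, and the tenascin-R gene Tnr to 56.3 ± 14.3 CPM in Npc1-/- vehicle, against 74.2 ± 10.1 CPM in Npc1+/+ cerebellum. Of 11 genes tested around D-serine, 1 rose and 1 fell, where 5.91% of all genes were called higher and 4.04% lower. The gene that rose was Slc1a4, an exchanger of neutral amino acids and D-serine, which averaged 71.5 ± 8.2 CPM in Npc1-/- vehicle, against 42.0 ± 7.6 CPM in Npc1+/+ cerebellum. Among 10 receptor and SMAD genes of the TGF-beta family and 8 SOX and NFI genes tested, edgeR called none, with an unadjusted p under 0.05 for 3 of the TGF-beta family and 1 of the SOX and NFI genes.

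Markers of other cells differed between the genotypes in the same libraries. Summed CPM of 11 Purkinje genes ran from 1296 to 1808 in Npc1-/- vehicle and from 6886 to 7844 in Npc1+/+ cerebellum, and 9 of 10 tested were lower, with Pcp4 at 0 in both groups. Summed CPM of 13 microglial genes ran from 1230.1 to 1423 in Npc1-/- vehicle and from 178 to 185 in Npc1+/+ cerebellum, and 11 of 12 tested were higher. Choroid plexus genes ranged from 132.5 to 3265 in Npc1-/- vehicle and from 731 to 2678 in Npc1+/+ cerebellum, and oligodendrocyte genes from 7140 to 12419 in Npc1-/- vehicle and from 6980 to 8170 in Npc1+/+ cerebellum. Gene by gene, the 12 oligodendrocyte markers had a median log2 fold change of -0.44, with 0 called higher, 1 called lower (Ugt8a, a galactolipid synthesis gene, at 48.5 ± 18.4 CPM in Npc1-/- vehicle and 88.4 ± 13.5 CPM in Npc1+/+ cerebellum) and 6 at an unadjusted p under 0.05. Of all genes, 3088 of 12921 had an unadjusted p under 0.05. The part of these markers in the members' changes was not tested.

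**Figure D4:**
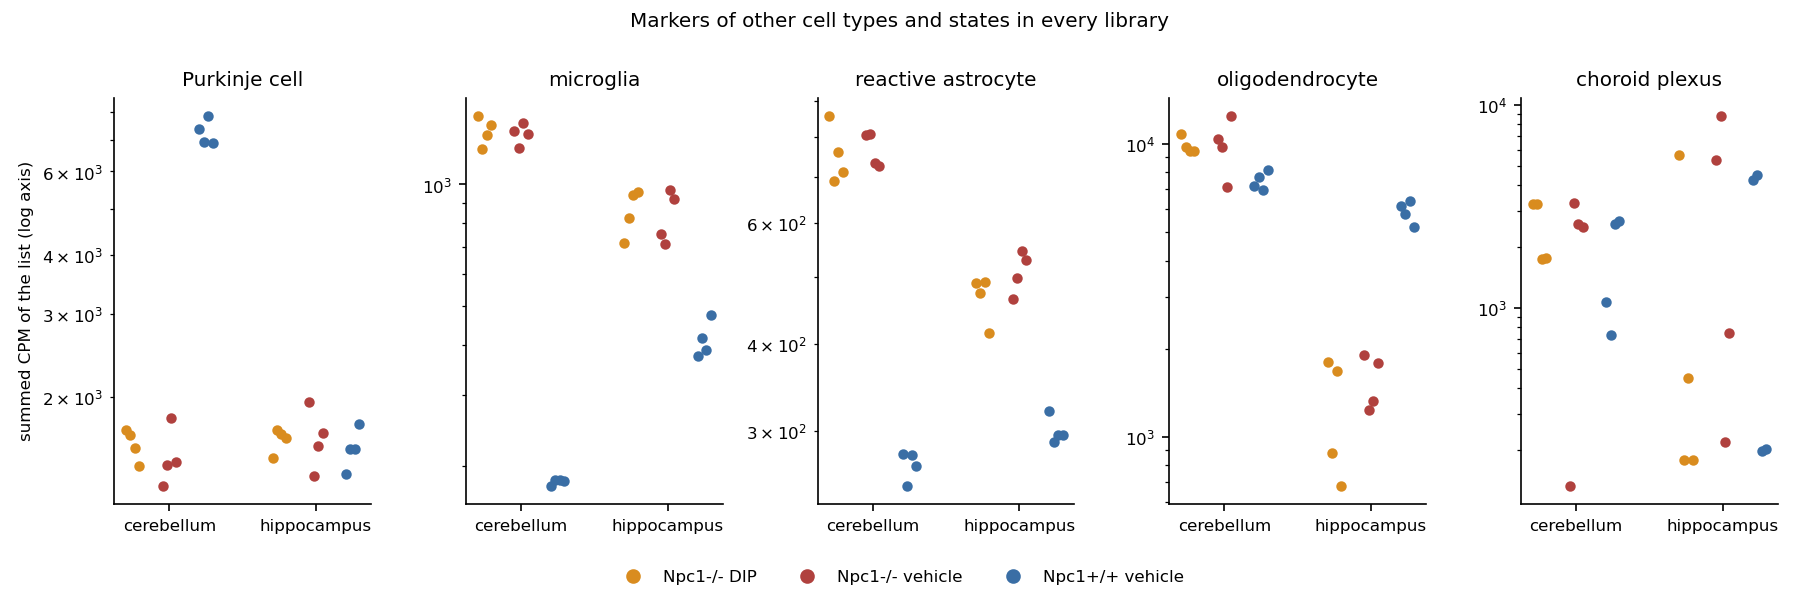
Summed CPM of 5 marker lists in every library on log axes, with Npc1-/- DIP, Npc1-/- vehicle and Npc1+/+ vehicle from left to right in each tissue. Purkinje markers are low in both Npc1-/- cerebellar groups, microglial and reactive astrocyte markers are high in both tissues, oligodendrocyte markers are low in Npc1-/- hippocampus, and choroid plexus markers vary widely within groups.

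In the hippocampus, edgeR called none of the 7 members tested between Npc1-/- vehicle and Npc1+/+ vehicle, where 1.62% of all 12740 genes passed, 1.02% higher and 0.597% lower. Gja1 and Fabp7 had an unadjusted p under 0.05, as did 1569 of the 12740 genes, and DESeq2 called Fabp7. Fabp7 measured 26.0, 39.0, 21.6 and 32.9 CPM in Npc1-/- vehicle hippocampus, against 40.2, 50.9, 48.3 and 43.2 CPM in Npc1+/+ hippocampus. The groups lay next to each other without overlap, as 11.7% of all genes did, with a log2 fold change of -0.83 ± 0.23 (edgeR, adjusted p = 0.11; DESeq2, adjusted p = 0.0169). It was called without Npc1-/- vehicle replicate 2 (-0.91, adjusted p = 0.0459) and without both that library and Npc1-/- DIP replicate 4 (adjusted p = 0.0326), and stood at -0.52 without Npc1-/- vehicle replicate 3 (adjusted p = 0.599). Tnc measured 13.2, 9.62, 9.00 and 8.70 CPM in Npc1-/- vehicle hippocampus, against 8.86, 12.8, 13.2 and 18.3 CPM in Npc1+/+ hippocampus, ranges that overlap (log2 fold change -0.51 ± 0.32, adjusted p = 0.574). Aqp4 averaged 71.4 ± 25.1 CPM in Npc1-/- vehicle and 85.0 ± 20.6 CPM in Npc1+/+ hippocampus, and its log2 difference had an interval of -0.89 to 0.40. For Gdf10 the interval ran from -1.22 to 0.26, for Sox9 from -0.09 to 0.98 and for S100b from -0.24 to 0.46. Dao, Gjb6 and Hopx fell below the filter on low counts.

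Among the other lists in hippocampus, 2 of 32 astrocyte genes rose, where 1.02% of all genes did. The aldolase gene Aldoc averaged 1679 ± 162 CPM in Npc1-/- vehicle and 1014 ± 184 CPM in Npc1+/+ hippocampus, and the transcription factor gene Rfx4 25.8 ± 5.7 CPM in Npc1-/- vehicle and 13.2 ± 4.7 CPM in Npc1+/+ hippocampus. Reactive astrocyte genes rose in 4 of 12, with Gfap at 54.6 ± 6.0 CPM in Npc1-/- vehicle against 16.1 ± 3.1 CPM in Npc1+/+ hippocampus. Of 16 other Bergmann glia genes edgeR called none, with 6 at an unadjusted p under 0.05, where 1569 of 12740 genes were. The oligodendrocyte connexin genes Gjb1 and Gjc3 fell. In Npc1-/- vehicle hippocampus Gjb1 averaged 4.02 ± 2.59 CPM and Gjc3 41.0 ± 8.1 CPM, whereas in Npc1+/+ hippocampus Gjb1 averaged 21.8 ± 2.8 CPM and Gjc3 92.2 ± 13.5 CPM. Summed oligodendrocyte markers ran from 1232 to 1907 CPM in Npc1-/- vehicle and from 5219 to 6413 CPM in Npc1+/+ hippocampus, with 11 of 12 genes lower. Choroid plexus markers ran from 219 to 8733 CPM in Npc1-/- vehicle and from 197 to 4508 CPM in Npc1+/+ hippocampus. The summed level of adult neural stem cell and newborn neuron genes lay between 92.6 and 111 CPM in Npc1-/- vehicle hippocampus, and did not overlap the Npc1+/+ range of 159 to 174 CPM, with Neurod1 at 0 in both groups. Of the 6 tested, 1 was lower and 0 were higher, the lysophosphatidic acid receptor gene Lpar1 at 27.6 ± 0.6 CPM in Npc1-/- vehicle and 97.6 ± 5.0 CPM in Npc1+/+ hippocampus. The difference of Lpar1 alone was about as large as that of the sum, so the sum is not a measure of the other genes in the list. Which cells the Lpar1 reads came from was not tested. The median log2 fold change of the 6 was -0.10, against -0.01 over all genes. The part of these in the members' values was not tested.

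The genotype difference of Aqp4 itself differed between the tissues. Its log2 fold change was 1.62 ± 0.36 larger in cerebellum than in hippocampus (edgeR over both tissues with the mouse as block, adjusted p = 0.0351), the 1 member called among 9, where 1.15% of all 13436 genes were, 0.543% higher and 0.61% lower. In hippocampus alone the interval of its log2 difference included 0. The call was lost in 10 of the 12 fits that left out 1 mouse, with adjusted p up to 0.124 without Npc1-/- vehicle replicate 3, and held only without Npc1+/+ replicate 1 or replicate 4. Tnc (-1.58 ± 0.47, adjusted p = 0.163) and Gdf10 (-1.01 ± 0.28, adjusted p = 0.126) were not called, but without the tissue by sex term Tnc (adjusted p = 0.00525) and Gdf10 (adjusted p = 0.00653) were, as was Tnc without Npc1+/+ replicate 4 (adjusted p = 0.0256). Other Bergmann glia genes with a called difference numbered 5 of 17, all with a lower genotype fold change in cerebellum than in hippocampus. Among them were Gli1 at -2.51 ± 0.38 and Slc1a3 at -1.24 ± 0.21. Fitted by tissue, the log2 fold change of Gli1 was -1.38 ± 0.20 in cerebellum and 1.18 ± 0.37 in hippocampus. That of Slc1a3 was -0.91 ± 0.16 in cerebellum and 0.30 ± 0.19 in hippocampus, and edgeR called neither gene in hippocampus.

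Against Npc1+/+ vehicle mice, Npc1-/- mice treated with DIP had low Tnc and Gdf10 and high Aqp4 and Gja1 in cerebellum. These values are set beside those of Npc1-/- vehicle mice, and both comparisons share the Npc1+/+ mice. Of the 9 tested members 6 passed, 3 higher and 3 lower, where 14.4% of all genes did, 8.13% higher and 6.29% lower. Tnc measured 3.69, 3.9, 5.93 and 6.23 CPM in Npc1-/- DIP cerebellum, a log2 fold change of -2.09 ± 0.24 against Npc1+/+ (edgeR, adjusted p = 8.37e-06), beside -2.04 for Npc1-/- vehicle. Gdf10 measured 51.8, 44.1, 35.8 and 27.1 CPM, a fold change of -1.57 ± 0.21 beside -1.50. Aqp4 measured 253, 362, 373 and 360.3 CPM (1.17 ± 0.26 beside 1.36), and Gja1 931, 811, 976 and 1007 CPM (0.93 ± 0.14 beside 0.94). These 4 genes, Sox9 and Fabp7 did not overlap with the Npc1+/+ range, as for 25.8% of all genes.

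Sox9 measured 66.7, 60.9, 55.5 and 52.2 CPM in Npc1-/- DIP cerebellum, all above the 44.7 CPM of the highest Npc1+/+ cerebellum, and rose by 0.61 ± 0.16 on the log2 scale (edgeR, adjusted p = 0.0175). Fabp7 measured 47.2, 49.9, 53.0 and 55.0 CPM, all below the 63.8 CPM of the lowest Npc1+/+ cerebellum, at -0.57 ± 0.18 (adjusted p = 0.0438). Sox9 lost its call in 5 of 12 fits without 1 library and Fabp7 in 8, with adjusted p up to 0.0656 for Sox9 without Npc1-/- DIP replicate 3 and 0.144 for Fabp7 without Npc1-/- vehicle replicate 3. S100b averaged 197 ± 30 CPM in Npc1-/- DIP and 223 ± 28 CPM in Npc1+/+ cerebellum and was not called (-0.29 ± 0.15, adjusted p = 0.1997), nor were Dao and Gjb6.

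In hippocampus, 2 of 7 tested members were lower in Npc1-/- DIP than in Npc1+/+ mice and none was higher, where 2.68% of all genes passed, 1.09% lower and 1.59% higher. Tnc measured 6.18, 6.61, 7.27 and 4.48 CPM in Npc1-/- DIP hippocampus, against 8.86, 12.8, 13.2 and 18.3 CPM in Npc1+/+ hippocampus. The groups did not overlap, as for 12.4% of all genes, and the log2 fold change was -1.20 ± 0.29 (edgeR, adjusted p = 0.0435). Fabp7 measured 25.5, 26.8, 22.7 and 28.1 CPM in Npc1-/- DIP hippocampus, against 40.2, 50.9, 48.3 and 43.2 CPM in Npc1+/+ hippocampus, again without overlap, at -0.96 ± 0.20 (edgeR, adjusted p = 0.0166). The call of Tnc was lost in 9 of 12 fits without 1 library, with an adjusted p of 0.237 without Npc1-/- DIP replicate 4, and held without Npc1+/+ replicate 1 or Npc1-/- vehicle replicate 1 or 2. That of Fabp7 was lost in 4, without Npc1+/+ replicate 2 or 3, Npc1-/- vehicle replicate 3 or Npc1-/- DIP replicate 3, with adjusted p of 0.0549 to 0.0724.

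**Figure D5:**
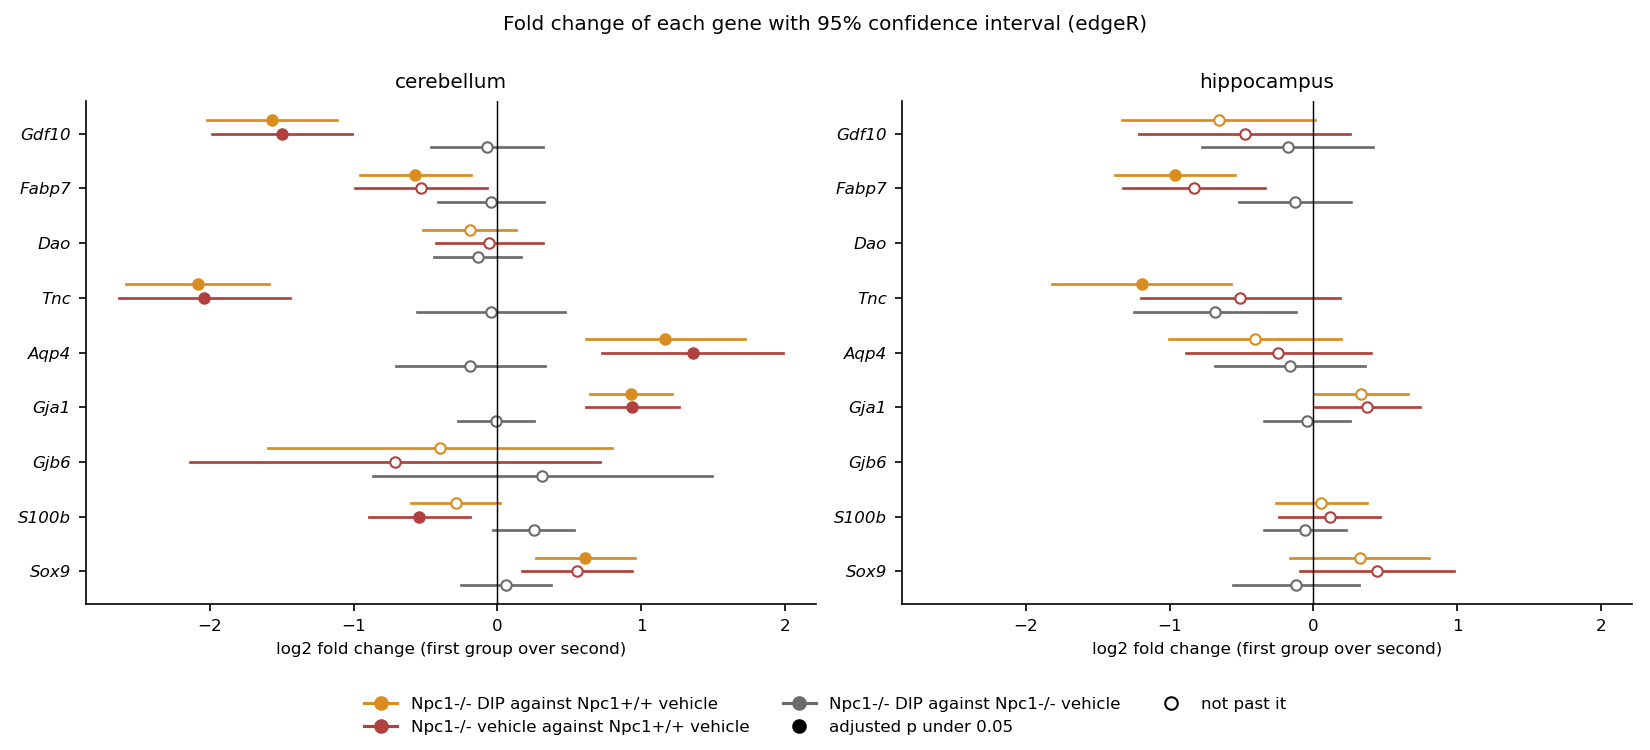
Log2 fold change with its 95% confidence interval (edgeR), with filled points for an adjusted p under 0.05. Shown are the 9 genes with enough counts in cerebellum and the 7 in hippocampus, where Dao and Gjb6 were not tested. The intervals of DIP against vehicle include 0 for all genes but Tnc in hippocampus.

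With dipyridamole, no member differed past the threshold from vehicle. This comparison shares the Npc1-/- vehicle mice with that of genotype. The edgeR test called none of the 9 tested in Npc1-/- DIP against Npc1-/- vehicle cerebellum and none of the 7 in hippocampus, where 0% of all genes were called in either tissue. At an unadjusted p under 0.05 stood 0 members and 300 of 12921 genes in cerebellum and 1 member and 93 of 12740 genes in hippocampus. DESeq2 called 0 members in either tissue, with 1 gene in all in cerebellum and 2 in hippocampus. The member with an unadjusted p under 0.05 was Tnc in hippocampus, which measured 6.18, 6.61, 7.27 and 4.48 CPM with DIP and 13.2, 9.62, 9.00 and 8.70 CPM with vehicle. Every DIP library lay below every vehicle library, as 1.2% of all genes separated in 1 direction or the other. The log2 difference was -0.69 ± 0.26, with an unadjusted p of 0.0206 and an adjusted p of 1.00. In cerebellum the intervals of the log2 difference were narrow for Gja1 (-0.28 to 0.25), Sox9 (-0.26 to 0.37) and Gdf10 (-0.46 to 0.32), and wider for Aqp4 (-0.71 to 0.33), Tnc (-0.56 to 0.47) and Gjb6 (-0.87 to 1.49). S100b averaged 197 ± 30 CPM with DIP and 171 ± 15 CPM with vehicle in cerebellum, a log2 difference of 0.25 ± 0.13 with an interval of -0.03 to 0.54. In cerebellum, summed Purkinje markers ran from 1431 to 1701 CPM with DIP and from 1296 to 1808 CPM with vehicle, and microglial markers from 1227 to 1476 CPM with DIP and from 1230.1 to 1423 CPM with vehicle.

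The 2 astrocyte connexins were set against each other within a library, which needs no scaling. The log2 ratio of Gjb6 to Gja1 counts, with 0.5 added to each, ran from -10.2 to -9.19 in Npc1-/- vehicle and from -9.53 to -7.86 in Npc1+/+ cerebellum. It was 1.28 lower in Npc1-/- vehicle by mean (exact two-sided permutation test over 70 arrangements, p = 0.0571, adjusted p = 0.343 over 6 comparisons, smallest p possible 0.0286), and the groups overlapped. The other 5 comparisons gave p from 0.114 to 1.

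Ordered by mean level over the 6 groups, the members fell into different patterns. Gdf10 and Dao were highest in Npc1+/+ cerebellum, then in Npc1-/- vehicle and DIP cerebellum, whose ranges overlapped, and lowest in hippocampus, where the 3 groups overlapped. Tnc was also highest in Npc1+/+ cerebellum, but the Npc1-/- cerebella, at 4.94 ± 1.33 CPM with DIP and 4.34 ± 1.52 CPM with vehicle, came lowest, next to Npc1-/- DIP hippocampus. Fabp7 ran in the same order within each tissue, Npc1+/+ above Npc1-/- vehicle above DIP, and its neighbouring groups overlapped except Npc1+/+ and Npc1-/- vehicle hippocampus, whose nearest libraries stood at 39.0 CPM in Npc1-/- vehicle and 40.2 CPM in Npc1+/+. Aqp4 was highest in the Npc1-/- cerebella and showed 1 step without overlap, between Npc1-/- DIP and Npc1+/+ cerebellum. Gja1 was highest in the Npc1-/- cerebella too, but Npc1+/+ cerebellum was its lowest group, at 515 ± 34 CPM, next to Npc1+/+ hippocampus at 523 ± 76 CPM. Sox9 had the same order of extremes, with no step free of overlap between neighbours. S100b had its step between tissues, with 171 ± 15 CPM in Npc1-/- vehicle cerebellum above 73.9 ± 8.4 CPM in Npc1-/- vehicle hippocampus. Gjb6 overlapped throughout, between 0.585 ± 0.459 and 1.38 ± 0.604 CPM.

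The gene whose profile over these 6 groups was closest to each member was found as the smallest root mean square difference of centred group means of log2(CPM + 1), among 10230 genes with at least 5 CPM on average. Closest to Gja1 was S100a1, an S100 protein gene, at 0.031 log2 units, where the median candidate lay at 0.44 from Gja1. Sox9 was closest to Mks1 at 0.043, Gjb6 to Iqcc at 0.049, S100b to Zfp467 at 0.068 and Fabp7 to Dnajb2 at 0.088. Gdf10 was closest to Plekhd1 at 0.12, which averaged 11.0 CPM in Npc1-/- vehicle and 27.4 CPM in Npc1+/+ cerebellum. Aqp4 was closest to Sla at 0.16, which averaged 40.5 CPM in Npc1-/- vehicle and 21.2 CPM in Npc1+/+ cerebellum. Tnc at 0.22 from Wiz and Dao at 0.35 from Klk6 had no gene as near. The median candidate lay farther from them too, at 0.84 from Tnc and 2.62 from Dao, against 0.31 from Gjb6. Among the members, Gja1 and Sox9 were closest to each other at 0.16, and S100b and Fabp7 at 0.41. These are descriptions over 6 group means, in which flat profiles lie near many genes.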

How the data were processed

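Gene counts were deposited by the authors as raw, whole-number counts per Ensembl gene, 1 file for each of the 24 libraries. Per the labels, RNA was amplified with the AmpliSeq Transcriptome Mouse panel and read on an Ion S5. FastQC 0.11.9, Trimmomatic 0.39, STAR 2.7.9a and GRCm39 are named in the submitters' processing notes. Counting was done with featureCounts 2.0.3 on the GENCODE annotation with no strand option, per the file headers. Panel counts depend on 1 amplicon per gene, whose position was not located here, so a gene with a failing amplicon reads as absent and the Npc1 amplicon need not cover the mutated sequence.

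Symbols were matched for 51884 of 57126 identifiers, and genes without one held 0.21% of counts. Totals were 1833609 to 11590081 counts per library. Counts were tested with edgeR 4.0.16 (quasi-likelihood, robust, TMM factors, filterByExpr) in R 4.3.3, with all 12 libraries of a tissue in a fit and sex as covariate. Tissue comparisons used all 24 libraries with the mouse as block, and the difference of genotype effects had a tissue by sex term. P-values were Benjamini-Hochberg adjusted over all genes tested, with a threshold of 0.05. CPM were computed from the counts with TMM factors over all 24 libraries, and values are mean ± SD over 4 mice unless given as SE. Confidence intervals are at 95%. Intervals of edgeR's log2 values include the variation between mice, whereas the interval of the Dao count ratio and the floors of 3 counts cover counting error only. The edgeR steps were also run on simulated data, and the outcome of that run is not given here.

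Within a group, replicates differed by 6.99 to 46.2 in chi-square per degree of freedom over 36 pairs, so none was a repeated library. The replicate numbers did not pair mice across groups. The alternatives tried were DESeq2 1.42.0, RLE factors, no filter or a stricter one, no sex covariate, the compared groups alone, female mice alone, a replicate block and leaving out each library. The 10 genes and the other lists were chosen with earlier results of these data known. All 10 are named. In each comparison, the other genes named are among the 4 of smallest p of a list's called genes, or among the 2 of smallest p, with values alone, if it had no call. Some genes of these lists are not reported here.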

Additional observations from a re-analysis of the deposited data

Results flagged for a closer look

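Single libraries stood apart from the other 3 of their group in 4 of the 51 groups checked, where the gap to the nearest library, as a share of the group's range, exceeded Dixon's 95% critical value. Chance gives about 1 in 20 groups. Gdf10 was 3.80 CPM in Npc1-/- DIP hippocampus replicate 4, below 8.27 to 9.08 CPM in the others. That library also had the lowest principal neuron markers of the tissue. Dao was 53.2 CPM in Npc1+/+ cerebellum replicate 2, above 42.7 to 44.0 CPM in the others. Aqp4 was 253 CPM in Npc1-/- DIP cerebellum replicate 1, below 360.3 to 373 CPM in the others. S100b was 61.5 CPM in Npc1+/+ hippocampus replicate 4, below 71.3 to 73.1 CPM in the others.

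The genotype difference of Aqp4 was 1.62 larger on the log2 scale in cerebellum than in hippocampus by a test of the difference itself (edgeR, adjusted p = 0.0351). That edgeR call was lost without the filter on low counts (adjusted p = 0.0812) and without the mouse as block (adjusted p = 0.143). It was also lost in most of the fits that left a mouse out.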

How the results depend on the processing

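The members' values were recomputed under other settings, of which 1169 kept their direction and side of the threshold, 63 lost a call, 10 gained one and 33 changed sign. The cause of these changes was not tested. For Npc1-/- vehicle against Npc1+/+ cerebellum, 1286 genes were called, with 2249 without the sex covariate, 613 with the replicate block and 421 from the compared groups alone, where 3 members were called. For Npc1-/- DIP against Npc1+/+ cerebellum, 1864 genes were called, with 1171 under the block. In hippocampus the genotype calls were 206, with 490 without the sex covariate, 55 with the block, 47 from the compared groups alone, 404 with DESeq2 and 51 in females (where Npc1-/- vehicle is 1 mouse, assumed to vary like the others), and 1 member was called with DESeq2 and without the 2 hippocampal libraries in doubt, a setting chosen after seeing the data. For Npc1-/- DIP against Npc1+/+ hippocampus they were 342, with 195 under the block, 666 with DESeq2, 179 in females and 144 without the libraries in doubt. There, 0 members were called under the block or in females and 1 from the compared groups alone or without those libraries. Between the tissues, 155 genes were called, with 386 and 3 members without the tissue by sex term, and 0 members without the filter or without a replicate block (the mouse). For DIP against vehicle, 13 genes were called in cerebellum without the filter and 1 with DESeq2, and 2 in hippocampus with DESeq2.

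Replicate numbers correlated at -0.43 to 0.59 and paired no comparison throughout, with 1 or 2 of 4 libraries closest to their own number. With the replicate block, S100b (adjusted p = 0.203 for genotype), Sox9 (0.116) and Fabp7 (0.0845) in DIP against Npc1+/+ cerebellum, and Tnc (0.0999) and Fabp7 (0.0513) in hippocampus were not called. Dao changed sign in genotype cerebellum, to 0.0464. For DIP against vehicle cerebellum, Gja1 was 0.00591 without the filter and, without the sex covariate, Tnc was 0.11 and Gja1 0.0284. Without the libraries in doubt, Gdf10 was 0.15 and Aqp4 0.0891 for DIP against vehicle hippocampus.

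Leaving out 1 library gave 474 to 1866 genes and 3 to 5 members for genotype cerebellum and 31 to 238 genes and 0 to 1 member for hippocampus. It gave 858 to 2307 genes and 4 to 6 members for DIP against Npc1+/+ cerebellum and 130 to 428 genes and 0 to 2 members for hippocampus. Between the tissues it gave 27 to 227 genes and 0 to 2 members. The lowest genotype counts in both tissues came without Npc1-/- vehicle replicate 3. Signs changed in genotype cerebellum for Dao (-0.105 to 0.0609). In DIP against vehicle cerebellum they changed for Aqp4 (-0.31 to 0.089), Fabp7 (-0.28 to 0.0700), Gdf10 (-0.20 to 0.21), Gja1 (-0.0557 to 0.0521), Gjb6 (-0.41 to 0.76), Tnc (-0.16 to 0.15) and the connexin ratio (-0.38 to 0.39). In hippocampus they changed for Aqp4 (-0.35 to 0.0528), Gja1 (-0.12 to 0.0109), S100b (-0.13 to 0.0105) and the ratio (-0.41 to 0.0582), and in DIP against Npc1+/+ hippocampus for S100b (-0.00793 to 0.17). Across the tissues they changed for Gja1 (-0.13 to 0.0687) and Sox9 (-0.38 to 0.10) in Npc1+/+ mice, and for Sox9 in the difference of genotype effects (-0.19 to 0.29). Gjb6, with few counts, and hippocampal Dao are limited by depth.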
